A study of Mus musculus with 18 samples.

Results

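Transgenic dermis was compared with transgenic epidermis in mouse skin in which the Notch pathway had been switched on in keratinocytes. The arrays were chosen by their labels: 3 arrays of dermis and 3 of epidermis from transgenic skin, 6 of the 18 arrays in the study. The other arrays held wild-type dermis, wild-type epidermis, and whole skin of both genotypes, with 3 arrays a group. Transgenic mice carried K14NICDER, in which the keratin 14 promoter, active in basal keratinocytes, drives the Notch intracellular domain joined to an oestrogen receptor domain that responds to 4-hydroxytamoxifen (4OHT). All mice, wild-type controls included, were female C57Bl6xCBA F1 animals, were 7 weeks old at the start and received 4OHT for 14 days. The drug was therefore common to both genotypes, and the transgene was common to both layers compared here. Skin was kept in RNAlater before the layers were taken for RNA, which was hybridised to expression arrays. The labels did not say whether the 3 arrays of a group came from separate animals or pools, so each p-value reflects how far these samples differ from one another, which may be technical.

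Notch receptors are cut after a neighbouring cell's ligand binds, and the freed intracellular domain joins the DNA-binding protein RBPJ to switch on target genes such as those of the Hes and Hey families. In epidermis, Notch activity is known to promote the step from basal to suprabasal keratinocyte. Dermis holds fibroblasts, vessels, nerves, immune cells and the deep parts of the hair follicles, which are themselves built of keratinocytes.

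Of 13739 genes tested, 3054 (22.2%) differed between the layers of transgenic skin at an adjusted p under 0.05 in limma with Benjamini-Hochberg adjustment, and such genes are referred to as called. Of these, 1802 genes (13.1% of those tested) were higher in dermis and 1252 (9.11%) were higher in epidermis. When a gene was given the average of its probe sets in place of the brightest one, the called genes higher in dermis fell from 59.0% to 47.6% of all called genes, so the balance between the directions depended on the probe set. A difference of at least 8-fold was reached by 350 genes higher in dermis and by 136 higher in epidermis. For 2443 genes (17.8%) the 95% interval of the difference lay within 1 log2 unit of 0. Levels are log2 MAS5 signals, and every difference is the dermis mean minus the epidermis mean, so that a negative value is a gene higher in epidermis. In bulk tissue, fewer cells of a type and less RNA per cell cannot be told apart.

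The 3 arrays of transgenic dermis were less alike than those of the other separated layers. Over genes, their log2 values correlated at 0.809 to 0.894, against 0.921 to 0.938 among the transgenic epidermis arrays, and the median SD of a gene was 0.540 in dermis and 0.356 in epidermis. The share of all signal held by the brightest 1% of probe sets was 16.8%, 26.8% and 32.0% in dermis replicates 1, 2 and 3, and 22.6% to 26.2% in epidermis. Skeletal muscle genes also split the arrays: the mean log2 level of the 15 tested was 8.60 and 9.92 in dermis replicates 1 and 2 but 4.61 in replicate 3, and 5.78, 6.16 and 8.74 in epidermis. In limma none of those 15 was called (0 at an unadjusted p under 0.05, and 1 was called without dermis replicate 3), as shown by the fast myosin Myh4, at 10.18, 12.47 and 5.54 in dermis and 7.08, 6.64 and 8.74 in epidermis. With dermis replicate 1 left out the count of called genes was 3697. With any 1 of the other transgenic arrays left out it lay between 2177 and 2388.

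Markers of each layer had high signals in the other as well. Krt14, the basal keratin whose promoter drives the transgene, had log2 signals of 11.25, 11.03 and 11.10 in dermis and 12.05, 12.38 and 12.09 in epidermis. All 3 epidermis arrays were above all 3 dermis arrays, with a gap of 2.06-fold (difference -1.04, SE 0.28, adjusted p = 0.0151 by limma). The call was lost without dermis replicate 2 (adjusted p = 0.0565) or epidermis replicate 2 (adjusted p = 0.0659). The 2 other Krt14 probe sets had larger gaps, at -2.21 and -1.56. Krt5, the partner of Krt14, differed by -1.08 (SE 0.24, adjusted p = 0.00493). The collagen gene Col1a1 had 11.13, 12.52 and 13.14 in dermis and 11.76, 12.08 and 11.71 in epidermis. The groups overlapped, and the difference of 0.42 (95% interval -0.46 to 1.30) was not called. It became 0.98 (adjusted p = 0.0191) without dermis replicate 1 and -0.02 without dermis replicate 3. Vim, which encodes the mesenchymal filament vimentin, likewise overlapped between the layers and differed by 0.83 (adjusted p = 0.0920), a call made after quantile normalization (0.81, adjusted p = 0.00914) or without dermis replicate 1 (1.19, adjusted p = 0.00592). Dermis also holds follicle keratinocytes, and whether the layers were mixed was not tested.

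Among genes with a mean log2 signal of at least 7 in dermis, the largest difference toward dermis was that of Fmod. Fmod, a collagen-binding proteoglycan, had log2 signals of 8.74, 9.31 and 9.46 in dermis and 3.09, 0.24 and 0.38 in epidermis. The 2 sets of arrays were far apart, a difference of 7.94 (SE 0.98, adjusted p = 0.000103). Signals this low in 1 layer make the size depend on the scale, and with 16 added to the linear signal the Fmod difference was 4.94 (adjusted p = 1.09e-06). Erg, a transcription factor of endothelial cells, was at 7.78, 8.16 and 7.49 in dermis and 0.12, 0.67 and 3.18 in epidermis, a difference of 6.49 (adjusted p = 4.01e-05). Aplnr, the apelin receptor of vessels, differed by 6.33. Itga8, an integrin of mesenchymal cells, differed by 5.84, and Slit2, a guidance ligand, by 5.64. Tnmd, a marker of tendon cells, differed by 5.31. The aldo-keto reductase genes Akr1c14 and Akr1cl were on the same side, at 7.42 and 5.63, as were the matrix protein gene Dmp1 at 6.11 and the kallikrein Klk1b27 at 5.50. The largest differences were picked from genes whose arrays did not overlap, so in these 10 genes that separation was fixed by the choice. Over all genes, 5021 (36.5%) showed it in one direction or the other.

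Among genes with a mean log2 signal of at least 7 in epidermis, the largest difference toward epidermis was that of Il1f9. Il1f9, an interleukin-1 family cytokine also called IL-36 gamma, had 9.35, 9.35 and 9.13 in epidermis and 4.84, 4.94 and 0.35 in dermis. All epidermis arrays lay above all dermis arrays and dermis replicate 3 was the lowest, with a difference of -5.90 (SE 0.89, adjusted p = 0.000418). Krt6b, a keratin of stressed epidermis, was at 11.11, 11.94 and 10.31 in epidermis and at 5.75, 8.29 and 2.67 in dermis, a difference of -5.55 (adjusted p = 0.00473). Sprr1b, a small proline-rich protein cross-linked into the cornified envelope, was at 11.53, 11.58 and 10.96 in epidermis and at 6.47, 8.39 and 5.82 in dermis. Non-overlap was, as toward dermis, a condition for naming these genes. Sprr1b differed by -4.46 (adjusted p = 0.000667 in limma). Its relative Sprr2h differed by -4.77, the tight junction gene Cldn4 by -5.09, the serpin gene Serpinb12 by -4.61 and the calmodulin-like gene Calm4 by -4.27. Dkkl1 differed by -5.43 and the cytokine-like Fam3b by -5.16. The difference of -4.50 for Sprr2d was called at an adjusted p of 0.0490 and was not called when any 1 of the transgenic arrays other than dermis replicate 2 was left out (adjusted p from 0.0719 to 0.157).

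**Figure D1:**
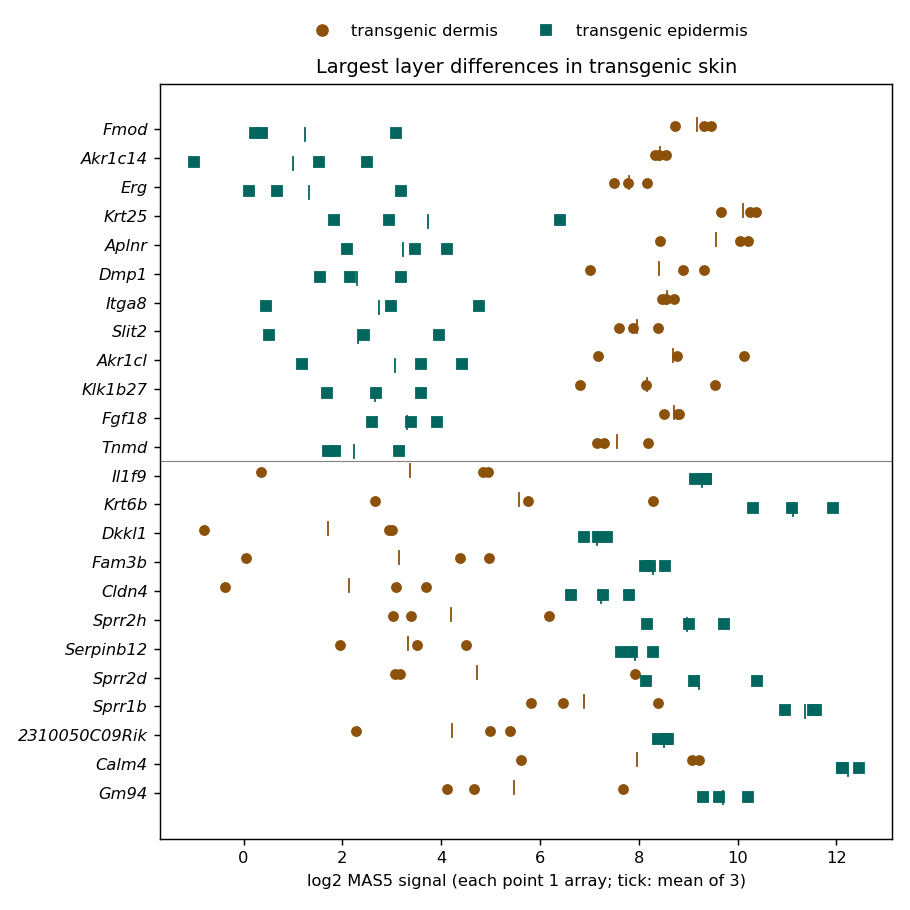
Log2 MAS5 signal of the 24 genes with the largest called layer differences in transgenic skin, 12 in each direction, among genes with no overlap of arrays and a mean of at least 7 in the higher layer, with 1 point for each array (circles for dermis, squares for epidermis) and a tick at each mean of 3. Dimmer genes such as Il1a and Wif1 are left out although they differed by more than some of those plotted, and for some plotted genes the lower layer is widely spread, as for Fmod in epidermis (0.24 to 3.09) and Il1f9 in dermis (0.35 to 4.94).

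Promoters are shown for Sprr1b and Krt25, which are among the genes plotted above, and for Prr9, whose layer difference departed from that of wild-type skin. They are Sprr1b (higher in epidermis), Krt25, a keratin of the hair follicle's inner root sheath (higher in dermis), and Prr9, a proline-rich gene of the hair follicle (higher in dermis, but higher in epidermis in wild-type skin). Each run is RefSeq sequence of GRCm38.p6 read 5′ to 3′ on the minus strand, and spans the gene's start site. The windows are chr3:92438730-92439029 for Sprr1b, chr11:99322902-99323201 for Krt25 and chr3:92123898-92124197 for Prr9. Capitals mark matches to TATAAA, the TATA box core, and to TGANTCA, where N is any base. The core bound by AP-1 proteins such as Fos and Jun has C or G at N, so TGANTCA is wider than that core.
Sprr1b: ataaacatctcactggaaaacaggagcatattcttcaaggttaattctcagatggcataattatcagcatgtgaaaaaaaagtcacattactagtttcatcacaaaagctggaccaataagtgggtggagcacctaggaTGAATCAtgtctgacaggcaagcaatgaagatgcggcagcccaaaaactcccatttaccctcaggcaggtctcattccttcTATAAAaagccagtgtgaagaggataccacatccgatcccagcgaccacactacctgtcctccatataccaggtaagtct
Krt25: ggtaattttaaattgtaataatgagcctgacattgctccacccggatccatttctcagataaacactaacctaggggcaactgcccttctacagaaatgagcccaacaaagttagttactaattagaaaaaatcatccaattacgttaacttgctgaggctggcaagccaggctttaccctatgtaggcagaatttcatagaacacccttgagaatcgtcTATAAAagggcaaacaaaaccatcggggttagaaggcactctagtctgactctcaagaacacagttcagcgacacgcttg
Prr9: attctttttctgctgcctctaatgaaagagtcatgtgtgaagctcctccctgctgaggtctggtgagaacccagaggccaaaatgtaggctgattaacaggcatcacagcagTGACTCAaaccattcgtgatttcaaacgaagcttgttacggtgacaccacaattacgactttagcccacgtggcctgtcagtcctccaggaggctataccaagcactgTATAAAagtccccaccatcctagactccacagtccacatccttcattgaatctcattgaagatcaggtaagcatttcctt

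All 3 windows held TATAAA at position -30 from the start site. TGANTCA was at position -111 in Sprr1b, with A at N, and at -138 in Prr9, with C at N, and no match was in the Krt25 window. The Sprr1b match is therefore not the AP-1 core, and the shares that follow count any base at N. Searched on both strands, TGANTCA was in 16% of the 125 windows of genes at least 8-fold higher in epidermis, 8.13% of the 332 windows of genes at least 8-fold higher in dermis and 5.71% of the 13943 windows of all tested genes. TATAAA was in 18.4%, 14.8% and 7.98% of the same windows. TGGGAA, the core bound by RBPJ, was in 22.4%, 30.4% and 23.6%. Promoters were listed for 10968 of the tested genes. A match is a description of the sequence and not a binding site.

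The gene lists described next were compared by how many of their tested members were called. Cornification genes lay toward epidermis. Of 25 tested genes of suprabasal and cornified keratinocytes, 23 were higher in epidermis and none in dermis, with a median difference of -2.61 against 0.102 over all genes. Ivl, the envelope precursor involucrin, was at 10.75, 11.36 and 10.89 in epidermis and 8.04, 7.57 and 6.38 in dermis, and the arrays did not overlap (difference -3.67, adjusted p = 3.62e-05). Casp14, a protease of terminal differentiation, differed by -3.85, Cnfn by -4.01 and Lce1b, a late envelope protein, by -2.88. The suprabasal keratins differed less evenly. Krt1 was at 12.19, 12.52 and 12.15 in epidermis and at 10.07, 10.55 and 6.34 in dermis, where replicate 3 was well below the others (difference -3.30, adjusted p = 0.00837). Krt10 differed by -1.51 (adjusted p = 0.0146), a call lost without dermis replicate 3 (adjusted p = 0.0588) or epidermis replicate 2 (adjusted p = 0.0533).

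Activation and alarm genes of keratinocytes followed the same side. Of 15 tested, 14 were higher in epidermis (median -3.66). Krt16, a keratin of hyperproliferative epidermis, was at 11.48, 11.69 and 10.92 in epidermis and 8.27, 7.64 and 6.22 in dermis, with no overlap (difference -3.99, adjusted p = 0.000326). The calprotectin subunit gene S100a9 differed by -3.54 (adjusted p = 0.000617). Its partner S100a8, at 11.70, 12.28 and 10.50 in epidermis and 6.98, 9.90 and 7.98 in dermis, differed by -3.21 (adjusted p = 0.0180). That call was lost without dermis replicate 1 or 3 or epidermis replicate 1 or 2 (adjusted p from 0.0534 to 0.0745).

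Barrier enzymes, junctions and epidermal regulators also lay toward epidermis. Of 21 tested enzymes of barrier lipids and their processing, 15 were higher in epidermis and none in dermis (median -2.24), among them the lipoxygenase Alox12b at -4.22 and the kallikreins Klk8 at -4.05 and Klk11 at -2.85. Of 24 junction genes, 12 were higher in epidermis and 1 in dermis (median -1.15). They included Jup, which encodes plakoglobin, at -3.22, the plakins Evpl at -2.49 and Ppl at -2.23, and the connexin Gjb5 at -2.50, while Pkp2, a plakophilin, was higher in dermis by 1.91. Another Pkp2 probe set had the opposite sign, and the call was lost without dermis replicate 2 or 3 or epidermis replicate 1 or 3 (adjusted p from 0.0733 to 0.118). Without dermis replicate 1 the junction genes higher in dermis became 3, and without dermis replicate 2 or epidermis replicate 3 there was none. Of 19 epidermal transcription factors, 11 were higher in epidermis and none in dermis (median -1.13). Grhl3 differed by -2.48, Gata3 by -2.17, Zfp750 by -1.88 and Klf4 by -1.19, all regulators of keratinocyte differentiation.

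Basal keratinocyte genes were called about as often as genes of any kind, 28.6% of them against 22.2% over all genes. Of 14 tested, 3 were higher in epidermis, 1 was higher in dermis and 10 were not called (median -0.29). The list's calls toward epidermis were Krt5, Krt14 and Sfn, a 14-3-3 protein that differed by -3.44, and they became 5 without dermis replicate 1. Trp63, the master regulator of stratified epithelium, had log2 signals of 10.15, 10.09 and 10.21 in dermis and 10.44, 10.05 and 10.56 in epidermis. The arrays overlapped, and the 95% interval of the difference was -0.70 to 0.30. Col17a1, a hemidesmosome collagen, had an interval of -0.43 to 0.79 and Itga6, its integrin partner, one of -1.0 to 0.26.

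Krt15, the basal keratin that also marks hair follicle stem cells, went the opposite way. It was at 11.40, 11.39 and 11.67 in dermis and at 8.20, 7.04 and 8.67 in epidermis. All 3 epidermis arrays were far below the dermis arrays, an 11.5-fold difference (3.52, SE 0.34, adjusted p = 2.19e-05). In wild-type skin it was at 11.80, 12.15 and 11.62 in dermis and at 11.70, 11.54 and 11.65 in epidermis, so the transgenic epidermis was the one group apart. The wild-type layer difference was 0.22 and the difference between genotypes was 3.29 (adjusted p = 0.0424).

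Hair follicle genes lay mainly toward dermis. Of 16 genes of follicle stem cells, 9 were higher in dermis and 1 in epidermis (median 1.28), the 1 being called in the fit without dermis replicate 1 but in no other fit without a transgenic array. Lhx2, a follicle stem cell transcription factor, was at 7.49, 7.73 and 8.63 in dermis and 2.94, 3.43 and 3.5 in epidermis, with no overlap (difference 4.66, adjusted p = 2.02e-05). The R-spondin receptors Lgr5 and Lgr6 differed by 5.53 and 3.56, Cd34 by 3.46 and Fgf18, a growth factor of the resting follicle, by 5.41. Sox9, a regulator of the follicle's outer layers, overlapped between layers, with an interval of -0.53 to 0.68. Of 13 genes of the dermal papilla and sheath, 8 were higher in dermis and none in epidermis (median 1.90), including the Wnt inhibitor Wif1 at 5.75 and the transcription factor Trps1 at 2.08.

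Most of the inner root sheath genes named were higher in transgenic dermis. Krt25 was at 10.26, 10.38 and 9.66 in dermis and 6.41, 1.84 and 2.95 in epidermis, an 82.3-fold difference (6.36, SE 1.18, adjusted p = 0.00171). In wild-type skin its levels were 1.34 to 1.98 in dermis and -0.51 to 4.40 in epidermis. Krt27 differed by 5.13, Krt71 by 4.10, Krt28 by 2.91 and Tchh, which encodes the sheath protein trichohyalin, by 3.46. Krt73, another inner root sheath keratin, was at 7.09, 4.73 and 5.36 in dermis and 5.98, 6.09 and 6.66 in epidermis, which overlapped, and its difference of -0.52 was not called. Of the 16 tested inner root sheath and hair shaft genes, 7 were higher in dermis and none in epidermis (median 1.04), against 2 in each direction in wild-type skin (median -0.93). Among shaft keratins, Krt31 and Krt34 were not called, at 0.10 and 0.64. The test of the genotype difference gave adjusted p = 0.255 for Krt25, 0.177 for Krt27 and 0.0727 for Tchh. With 16 added to the linear signal all 3 were called, at adjusted p = 0.0195, 0.0221 and 0.0357 in that order, so these calls depended on how low signals were scaled. In transgenic whole skin Krt25 varied widely, at 9.02, 7.79 and -1.43, so the 3 samples were far apart.

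Sebaceous gland genes were divided. Of 11 tested, 2 were higher in dermis and 2 in epidermis (median 0.22), with the microsomal enzyme Mgst1 at 1.55 and the lipid enzyme Dgat2 at -2.31. These counts are small, and at least 1 of the 4 calls was lost in each fit without a transgenic array other than dermis replicate 1.

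**Figure D2:**
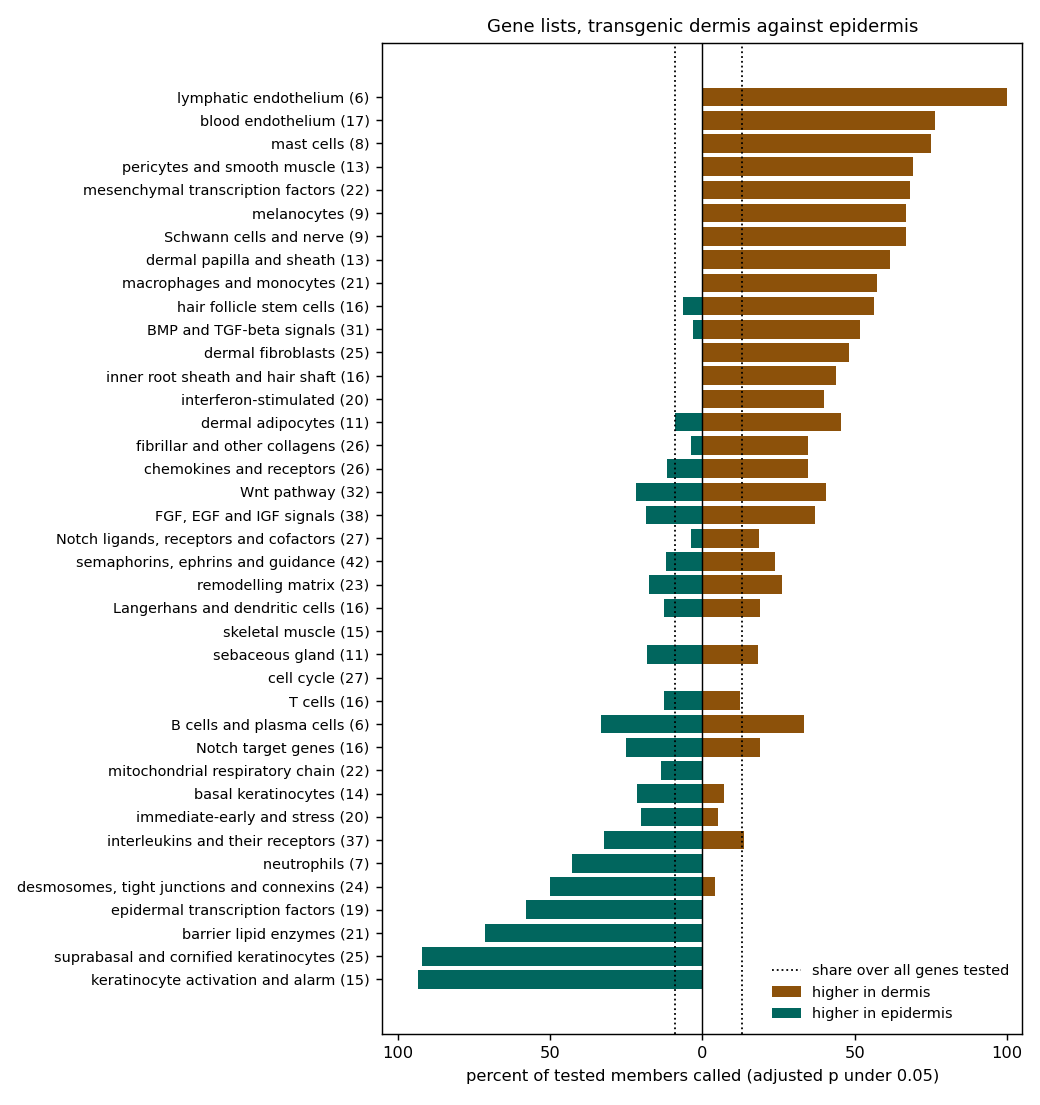
Percent of each list's tested members that were called, to the right where higher in transgenic dermis and to the left where higher in transgenic epidermis, with the number tested in parentheses and dotted lines at the shares over all genes (13.1% and 9.11%). Keratinocyte activation and cornification lists reach over 90% on the epidermis side, the lymphatic list reaches 100% on the dermis side, and the skeletal muscle and cell cycle lists have no called member.

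Genes of dermal fibroblasts were called toward dermis only in part. Of 25 tested, 12 (48%, against 13.1% over all genes) were higher in dermis and none in epidermis, with a median of 1.13. In wild-type skin 19 were higher in dermis, with a median of 2.51, but the genotype difference was called for no member. Pdgfra, a receptor that marks fibroblasts, was at 9.50, 9.43 and 9.97 in dermis and 7.16, 6.89 and 6.74 in epidermis, with no overlap (difference 2.70, adjusted p = 2.86e-05). Dpt differed by 2.75, Lum by 2.56 and Dcn by 2.82, all small matrix proteins. The fibrillar collagen genes Col1a1, Col1a2, Col3a1 and Col5a1 were not called, at 0.42, 0.51, 0.74 and 0.79. A second probe set of Col3a1 differed by more, at 2.20, and a second of Col1a1 was at 0.59. In wild-type skin Col1a2, Col3a1 and Col5a1 were called, at 1.96, 1.47 and 2.63, but the genotype difference was not called for them (adjusted p from 0.393 to 0.674).

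Over all 26 tested collagens, 9 were higher in dermis and 1 in epidermis (median 1.05). Col8a2 differed by 4.13, Col13a1 by 3.84 and Col15a1, a basement membrane zone collagen, by 2.16. Col7a1, the anchoring fibril collagen made largely by keratinocytes, was at 9.30, 8.62 and 8.68 in epidermis and 7.20, 7.01 and 7.18 in dermis, with no overlap (difference -1.74, adjusted p = 0.000793).

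Matrix remodelling genes fell on both sides. Of 23 tested, 6 were higher in dermis and 4 in epidermis (median 0.86). On the dermis side stood Fap, a fibroblast surface protease, at 2.46, Thbs2, a matricellular protein, at 2.07 and the gelatinase Mmp2 at 1.76. On the epidermis side stood Mmp9, another gelatinase, at 9.09, 7.25 and 7.03 in epidermis and 5.19, 5.34 and 5.80 in dermis (difference -2.34, adjusted p = 0.00293), with Mmp10 at -3.79, Mmp13 at -2.36 and Cthrc1 at -1.63. The Mmp10 call was lost without dermis replicate 3 or epidermis replicate 1 or 2 (adjusted p from 0.0571 to 0.0755), and the Mmp13 call was lost without dermis replicate 2 or epidermis replicate 1 or 2 (adjusted p from 0.0593 to 0.116). The 4 calls toward epidermis became 2 without dermis replicate 2 or 3 and 1 without epidermis replicate 1 or 2. Tnc, a matrix protein of wounds, overlapped between layers, with an interval of -0.89 to 0.71.

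Vessel genes lay toward dermis. Of 17 blood endothelial genes, 13 were higher in dermis and none in epidermis (median 2.54). Sox17, an arterial transcription factor, was at 6.69, 7.69 and 7.13 in dermis and 2.17, 3.09 and 2.05 in epidermis, with no overlap (difference 4.73, adjusted p = 1.72e-05). Pecam1 differed by 2.91, Vwf by 3.38 and Plvap by 3.42, while the VEGF receptor gene Flt1 was not called, at -0.61. Each of the 6 lymphatic endothelial genes tested was higher in dermis (median 2.73), from the guidance protein gene Reln at 4.10 through Lyve1 at 2.83 to Flt4 at 2.22 and others. Of 13 genes of pericytes and smooth muscle, 9 were higher in dermis (median 2.18). Mylk, a myosin kinase, was at 10.47, 11.08 and 10.75 in dermis and 6.51, 6.73 and 6.61 in epidermis, the difference with the smallest adjusted p among the list's members (4.15, SE 0.26, adjusted p = 1.72e-06). Rgs5 and Myh11 each differed by 4.00.

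Melanocyte, nerve and fat genes were also on the dermal side. Of 9 melanocyte genes, 6 were higher in dermis (median 2.63), among them Ednrb, an endothelin receptor, at 4.26, Mitf, the lineage regulator, at 2.29 and Dct, a pigment enzyme, at 2.63. Of 9 genes of Schwann cells and nerve, 6 were higher in dermis (median 2.88), including the myelin gene Pmp22 at 3.26, with 9.73, 9.77 and 9.64 in dermis and 6.63, 6.29 and 6.44 in epidermis. Of 11 adipocyte genes, 5 were higher in dermis and 1 in epidermis (median 1.91), and 8 were higher in dermis without dermis replicate 3. Fabp4, a fatty acid carrier, differed by 3.05 and Lep, which encodes leptin, by 4.89, whereas Cebpa, also a regulator of keratinocytes, was higher in epidermis (-1.62, adjusted p = 0.00406).

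Immune genes did not move as a block. Macrophage genes lay toward dermis, with 12 of 21 called there and none toward epidermis (median 1.70). Cd163, a scavenger receptor of tissue macrophages, was at 10.67, 10.80 and 10.47 in dermis and 5.37, 7.06 and 6.99 in epidermis, with no overlap (difference 4.17, adjusted p = 2.64e-05). The mannose receptor Mrc1 differed by 3.64, the growth factor receptor Csf1r by 1.70 and the complement gene C1qb by 2.12. Of 8 mast cell genes, 6 were higher in dermis (median 2.61), led among those named by the proteases Cpa3 at 4.33 and Mcpt4 at 3.24 and by Hdc, the enzyme that makes histamine, at 2.47.

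Neutrophil genes had 3 of 7 tested members called toward epidermis and none toward dermis (median -2.02). The 3 were S100a8, S100a9 and Mmp9, which activated keratinocytes also make, and the neutrophil receptor Cxcr2 was not called, at -2.02 (adjusted p = 0.0955). The remaining lists were divided, with 3 of 16 Langerhans and dendritic cell genes higher in dermis and 2 in epidermis (median -0.38), and 2 in each direction among 16 T cell genes (median -0.02) and among 6 B cell genes (median 1.07). In that order 31.2%, 25% and 66.7% of members were called, against 22.2% over all genes. The 2 dendritic cell calls toward epidermis ranged from 0 without dermis replicate 2 to 4 without dermis replicate 1, and the B cell calls toward dermis fell to 1 without any 1 of the 6 transgenic arrays. The B cell calls toward epidermis fell to 0 without dermis replicate 2 or 3 or epidermis replicate 1 or 3 and to 1 without epidermis replicate 2. Cd4 differed by 2.56 and Cd3g by -2.03, and both calls were lost without dermis replicate 3 (adjusted p = 0.0647 and 0.0553) or epidermis replicate 3 (adjusted p = 0.0693 and 0.0686). In the T cell list, 1 or both of these directions lost members without dermis replicates 2 or 3 or epidermis replicates 2 or 3, down to none in either direction without epidermis replicate 3. Ptprc, the CD45 gene of all leukocytes, was at 9.58, 9.06 and 9.37 in dermis and 8.24, 7.89 and 8.24 in epidermis (difference 1.21, adjusted p = 0.0296), a call lost when any 1 transgenic array other than dermis replicate 2 was left out (adjusted p from 0.0588 to 0.100). Among 3 genes of blood cells tested, only the platelet chemokine Pf4 was called, at 2.64, and the haemoglobin gene Hbb-b2 was at 0.69.

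Genes of the Notch pathway itself gave no single direction. Of 27 ligands, receptors and cofactors tested, 5 were higher in dermis and 1 in epidermis (median 0.04), and 6 of 27 is 22.2%, equal to the share over all genes. The receptor Notch1 was at 8.26, 7.49 and 8.05 in dermis and 7.88, 7.57 and 8.60 in epidermis, with overlap and an interval of -0.76 to 0.60. A second Notch1 probe set was at -0.92. The ligand Jag1 differed by -0.53 (adjusted p = 0.0948), and its 2 other probe sets were at -1.37 and -0.78. Mfng, a Fringe enzyme that modifies receptors, was higher in dermis by 1.67 (adjusted p = 0.0130). Rbpj, the DNA-binding partner, was higher by 1.27 (adjusted p = 0.0179) and Notch4, a receptor of endothelium, by 1.87 (adjusted p = 0.0333). The Rbpj call was lost without dermis replicate 1 or epidermis replicate 2 or 3 (adjusted p from 0.0527 to 0.0686), and the Notch4 call without dermis replicate 2 or 3 or epidermis replicate 1 or 3 (adjusted p from 0.0593 to 0.133). The list's 5 calls toward dermis became 2 or 3 without any 1 transgenic array other than dermis replicate 3.

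Target genes of Notch were called in both directions. Hey1, a target that endothelium and mesenchyme use, was at 7.97, 7.71 and 7.66 in dermis and 4.55, 4.66 and 3.81 in epidermis, with no overlap (difference 3.44, adjusted p = 0.000103). Hey2 differed by 4.54 (adjusted p = 0.00102). Heyl differed by 2.28 (adjusted p = 0.0454), a call lost without any 1 transgenic array other than epidermis replicate 1. Nrarp, a feedback inhibitor of Notch, was at 10.38, 10.36 and 10.35 in epidermis and 9.54, 9.65 and 9.38 in dermis, a small gap with no overlap (difference -0.84, adjusted p = 0.0150). Hes1 was at 4.89, 5.19 and 5.20 in epidermis and 4.08, 4.50 and 4.87 in dermis, which did not overlap, but the difference of -0.61 was not called (95% interval -1.45 to 0.23). Of 16 target genes tested, 3 were higher in dermis and 4 in epidermis (median -0.22), and the other calls toward epidermis were Gata3, Krt1 and Cdkn1a, a cell cycle inhibitor at -1.65. For none of the Hes, Hey and Nrarp genes named did the layer difference depart from that of wild-type skin at the threshold (genotype difference adjusted p from 0.628 to 0.911).

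Secreted signals were called toward both layers. The EGF receptor ligands Epgn, Hbegf, Ereg, Btc and Tgfa were all higher in epidermis, and Areg had no probe set of 1 named gene and was not tested. Epgn was at 7.90, 9.88 and 9.12 in epidermis and 5.54, 5.82 and 6.21 in dermis, with no overlap (difference -3.11, adjusted p = 0.000184), and the other 4 differed by -3.02 to -1.93. Another probe set of Tgfa had the opposite sign. The FGF ligands that were called, Fgf2, Fgf5, Fgf7, Fgf10 and Fgf18, were all higher in dermis. Fgf7, a keratinocyte growth factor made by fibroblasts, was at 6.23, 7.60 and 7.76 in dermis and 2.45, 3.82 and 3.43 in epidermis (difference 3.97, adjusted p = 0.000121). Fgf2 lost its call without dermis replicate 2 or 3 or epidermis replicate 1 or 3 (adjusted p from 0.0524 to 0.111). Fgf10 overlapped between the layers and lost its call in the fit of the 6 transgenic arrays alone (adjusted p = 0.0789) and without dermis replicate 2 or 3 or epidermis replicate 1 or 3 (adjusted p from 0.111 to 0.155), and a second probe set of Fgf5 had the opposite sign. Igf1 differed by 3.43 and its binding protein gene Igfbp3 by 3.84, and the list of 38 FGF, EGF and IGF signals had 14 members higher in dermis and 7 in epidermis (median 0.78).

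Wnt ligands lay on both sides. Of 32 genes of the Wnt pathway, 13 were higher in dermis and 7 in epidermis (median 0.49), the 7 becoming 4 without dermis replicate 2 or epidermis replicate 3. Wnt3 was at 5.86, 4.76 and 6.15 in epidermis and 2.72, 0.77 and -1.45 in dermis, with no overlap (difference -4.91, adjusted p = 0.00127), and Wnt4, Wnt7b and Wnt16 were also higher in epidermis, at -1.22, -2.47 and -2.05. The Wnt4 call was lost without dermis replicate 2 or epidermis replicate 3 (adjusted p = 0.0764 and 0.0664), and the Wnt16 call without any 1 transgenic array other than epidermis replicate 2 (adjusted p from 0.0532 to 0.172). Wnt5b was higher in dermis, at 2.72. The secreted modulators Wif1, Dkk2, Rspo1 and Sfrp1 were higher in dermis, at 5.75, 4.54, 2.94 and 1.92. Dkkl1, plotted with them below, went the other way, at -5.43. Of 31 BMP and TGF-beta genes, 16 were higher in dermis and 1 in epidermis (median 1.39), including the ligand Bmp2 at 2.93, the co-receptor Tgfbr3 at 3.56 and Ltbp1, which stores latent TGF-beta in matrix, at 3.39. The 1 call toward epidermis was Id4, and it became 3 calls without dermis replicate 1 and none without dermis replicate 3 or epidermis replicate 2.

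Most of the interleukin-1 family ligands named were higher in epidermis. Il1a, an alarm cytokine of keratinocytes, was at 5.95, 5.94 and 5.64 in epidermis and 2.19, 1.36 and -2.0 in dermis, with no overlap (difference -5.33, adjusted p = 0.00252). Il1f8 differed by -3.83, Il18 by -3.21 and the receptor antagonist Il1rn by -2.94, whereas the ligand Il33 was at 8.17, 8.55 and 9.25 in dermis and 7.24, 8.16 and 7.45 in epidermis, which only just did not overlap (difference 1.04, adjusted p = 0.0489). The Il33 call was lost without dermis replicate 2 or 3 or epidermis replicate 1 or 3 (adjusted p from 0.0916 to 0.180). The receptor Il1r1 was higher in dermis by 1.31, a call lost without epidermis replicate 2 (adjusted p = 0.0503). Of 37 interleukins and receptors, 12 were higher in epidermis and 5 in dermis (median -0.41), the 5 becoming 3 without epidermis replicate 2 or 3. Tslp, a cytokine of damaged epidermis, was at 6.35, 7.83 and 6.32 in epidermis and 5.44, 5.76 and 5.35 in dermis. The arrays did not overlap, but its difference of -1.32 missed the threshold (adjusted p = 0.0531) and was called in 7 alternative fits, such as that with 16 added to the linear signal (-1.09, adjusted p = 0.0324).

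Chemokines also split. Cxcl12, a stromal chemokine that retains leukocytes, was at 9.72, 9.35 and 9.58 in dermis and 6.30, 5.52 and 5.13 in epidermis, with no overlap (difference 3.90, adjusted p = 0.000120). Ccl11, the eosinophil attractant eotaxin, differed by 3.85, Ccl8 by 2.99 and the B cell attractant Cxcl13 by 2.84. Toward epidermis, Cxcl16 differed by -1.42, Ccl22 by -2.49 and Ccl20, which attracts Ccr6-bearing cells, by -3.81. The list of 26 had 9 members higher in dermis and 3 in epidermis (median 0.91), and without dermis replicate 3 only 1 stayed called toward epidermis, with Ccl20 and Ccl22 lost (adjusted p = 0.0853 and 0.0508). Ccl20 also lost its call without dermis replicate 2 or any 1 epidermis array (adjusted p from 0.0591 to 0.0906). Of 20 interferon-stimulated genes, 8 were higher in dermis and none in epidermis (median 0.87), among them Gbp3 at 2.83 and Ifit2 at 2.94.

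**Figure D3:**
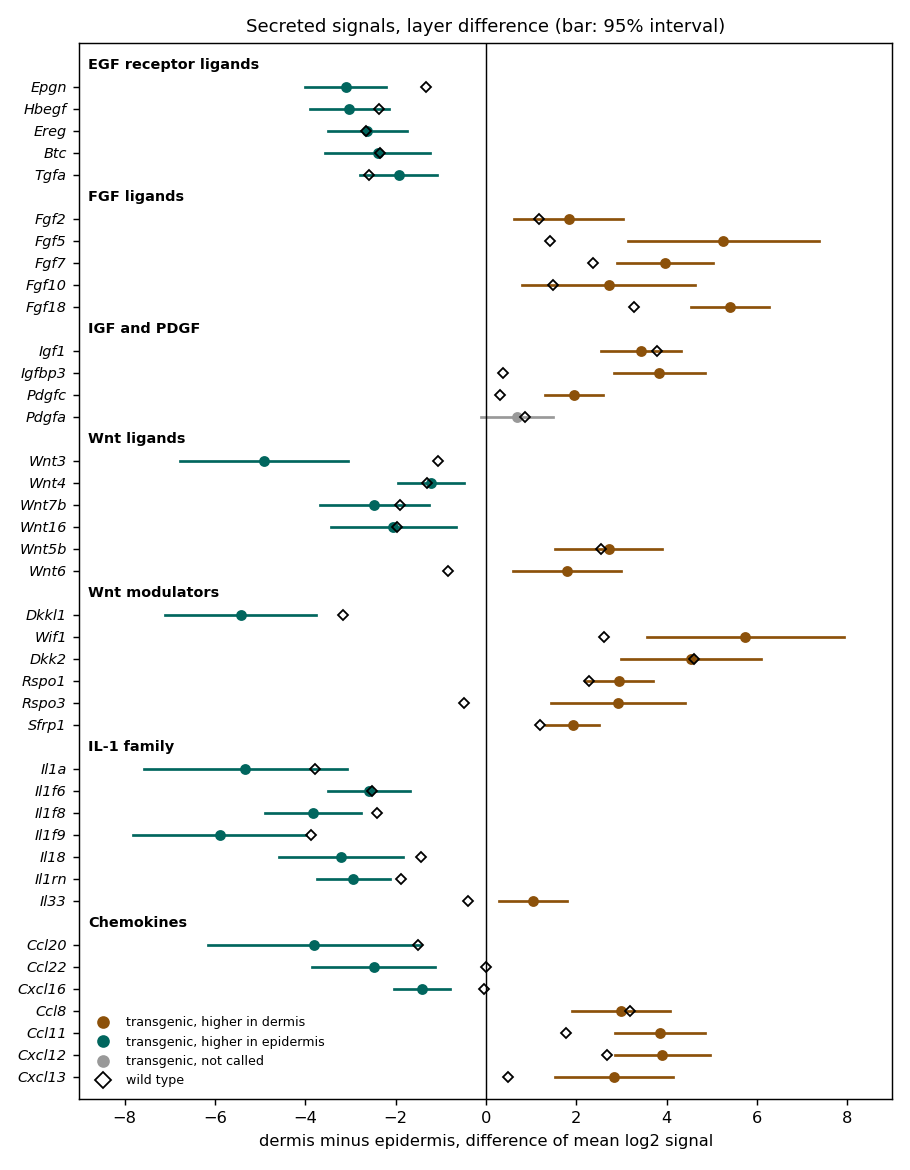
Dermis minus epidermis difference in mean log2 signal for secreted signal genes of transgenic skin (filled circles, with bars for the 95% interval, n = 3 arrays a layer) and the same difference in wild-type skin (open diamonds). The 5 EGF receptor ligands lie left of 0 and the 5 FGF ligands right of 0. Of these, all but Fgf18 were picked once their values had been seen, and only called FGF ligands are plotted. The Pdgfa interval includes 0 (called without dermis replicate 1, at 1.12). Wild-type diamonds outside the transgenic interval, as for Igfbp3, Wnt3, Fgf18 and Ccl11 among others, do not show a genotype difference, which was called for none of the genes plotted (Igfbp3 adjusted p = 0.136 in limma).

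Mesenchymal transcription factors lay toward dermis. Of 22 tested, 15 were higher in dermis and none in epidermis (median 2.38), with Twist1 at 8.07, 8.06 and 8.82 in dermis and 5.06, 5.40 and 5.12 in epidermis (difference 3.12, adjusted p = 2.19e-05). Ebf1 differed by 4.10 and Meox2 by 3.95. Guidance genes were mixed, with 10 of 42 higher in dermis and 5 in epidermis (median 0.22), 35.7% called against 22.2% over all genes. The semaphorin receptors Nrp1 and Nrp2 were at 3.65 and 2.43 and the plexin Plxnb2 at -2.22.

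Cell division genes had no called member. Of 27 tested, 0 passed limma's adjusted threshold (median -0.19) and 1 had an unadjusted p under 0.05. Without dermis replicate 1, 2 were called higher in dermis. Mki67, a marker of dividing cells, was at 10.35, 11.05 and 11.65 in dermis and 10.60, 10.73 and 10.77 in epidermis, with overlap and an interval of -0.33 to 0.96. Ccna2, an S and G2 phase cyclin, was at -0.69 (adjusted p = 0.129) and the replication helicase gene Mcm4 at 0.92 (adjusted p = 0.168). Immediate-early and stress genes, which tissue handling can change, had 4 of 20 members higher in epidermis and 1 in dermis (median -0.55). That is 25% called, near the 22.2% over all genes. Fos was at -2.43, Jun at -1.02, Ier2 at -1.98 and Dusp1 at -1.18, although another probe set of Jun had the opposite sign. The part that handling played in the other epidermal differences was not tested. Of 22 respiratory chain genes, 3 were higher in epidermis (median -0.08), 13.6% called against 22.2% over all genes. Only 1 was called toward epidermis without dermis replicate 3 or epidermis replicate 1 or 2, while 2 were higher in dermis without dermis replicate 1.

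Some of the brightest genes were named because the interval of their difference lay within 1 log2 unit of 0. For Rps29, Fabp5 and Rpl38 that bound was therefore fixed by the choice, and their intervals nearly filled it. Rps29, a ribosomal protein gene, had an interval of -0.88 to 0.93 and Fabp5, a fatty acid carrier of keratinocytes, one of -0.94 to 0.96. Rpl38, also ribosomal, had an interval of -0.83 to 0.78. In dermis Rps29 was at 11.81, 12.96 and 13.42, the same order of arrays as for Col1a1 and Vim, and the same order as the share of signal in the brightest 1% of probe sets given above. The actin gene Actb had -1.15 to 0.55.

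The same comparison in wild-type skin called 2559 genes (18.6%), 1725 higher in dermis (12.6%) and 834 higher in epidermis (6.07%). Its layer means came from other arrays than the transgenic ones. The spread of each gene was estimated once from all 12 arrays, so the 2 sets of calls are not independent. Of the genes higher in transgenic dermis, 1059 were also higher in wild-type dermis, 58.8% of the transgenic and 61.4% of the wild-type calls. Of those higher in transgenic epidermis, 540 were shared, 43.1% of the transgenic and 64.7% of the wild-type calls. The sign was the same in wild-type skin for 95.8% and 94.3% of the transgenic calls, and the share over all genes was not computed. Over all genes the 2 layer differences correlated at Pearson's r 0.707 and Spearman's rho 0.637, as a description across genes, which are not independent replicates. The difference between genotypes itself was called for 3 genes (0.0218%), with 1101 at an unadjusted p under 0.05, so a gene called in 1 genotype and not in the other is not shown to differ.

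The 3 genes were Krt15, Gem and Prr9. Gem, a small GTP-binding protein, was at 7.40, 7.95 and 7.87 in transgenic dermis and 4.98, 5.10 and 5.76 in transgenic epidermis, whereas both wild-type layers lay between 7.21 and 7.71. The transgenic epidermis was the group apart, and the genotype difference was 2.72 (adjusted p = 0.0424). Prr9 was at 9.72, 8.61 and 8.28 in transgenic dermis and 7.04, 7.03 and 7.31 in transgenic epidermis. In wild-type skin it was at 4.80, 5.02 and 4.30 in dermis and 6.24, 7.48 and 7.96 in epidermis, so the order of the layers was turned round by a dermis that was higher in the transgenic arrays. The layer differences were 1.75 in transgenic and -2.52 in wild-type skin, and the genotype difference was 4.26 (adjusted p = 0.0424). These 3 calls were close to the threshold: in fits without 1 array, the number of genes called ranged from 0 to 54.

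**Figure D4:**
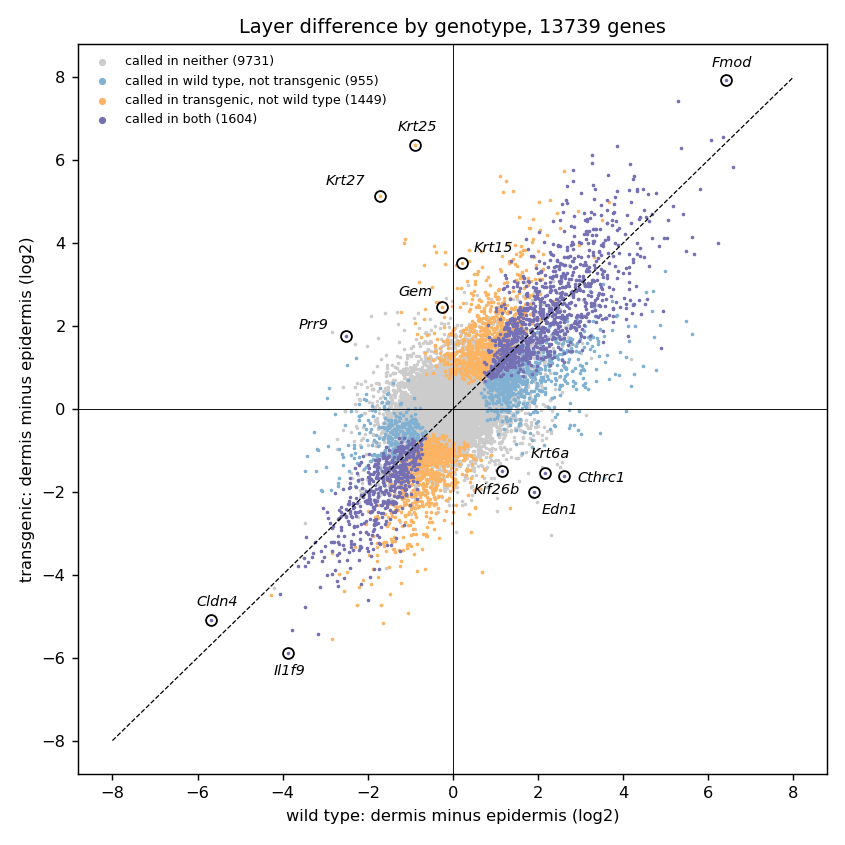
Dermis minus epidermis log2 difference in transgenic skin (vertical) against wild-type skin (horizontal) for 13739 genes, coloured by call, with the dashed line at equal values. Of the points, 1604 are called in both genotypes, among them Fmod, Cldn4 and Il1f9, while Krt15, Gem and Prr9 lie above it and Krt6a, Cthrc1, Edn1 and Kif26b lie below it at the lower right.

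Some genes were called in both genotypes with opposite signs. They were Prr9 and the genes Krt6a, Kif26b, Edn1 and Cthrc1, which were higher in dermis in wild-type skin and higher in epidermis in transgenic skin. Krt6a, a keratin of wounded and activated epidermis, was at 11.91, 11.89 and 11.15 in transgenic epidermis and 10.01, 10.10 and 10.24 in transgenic dermis (difference -1.53, adjusted p = 0.0153). In wild-type skin it was at 8.76, 9.0 and 9.02 in dermis and 7.80, 5.67 and 6.80 in epidermis, so both layers were higher in the transgenic arrays and the epidermis more so. Its transgenic call was lost without epidermis replicate 1 (adjusted p = 0.0573) or 2 (adjusted p = 0.0588). Cthrc1, a secreted protein of repairing tissue, was at 8.05, 7.12 and 6.61 in transgenic epidermis and 6.04, 4.92 and 5.96 in transgenic dermis (difference -1.63, adjusted p = 0.0345), and at 1.61, 0.78 and 1.65 in wild-type epidermis against 4.10, 3.58 and 4.22 in wild-type dermis. That call was lost without dermis replicate 2 or 3 or epidermis replicate 1 or 2 (adjusted p from 0.0503 to 0.170). Kif26b differed by -1.49 in transgenic and 1.16 in wild-type skin. Edn1, which encodes endothelin-1, differed by -2.01 and 1.91, and its transgenic call was lost without any 1 of 5 transgenic arrays (adjusted p from 0.0719 to 0.100). The genotype difference was not called for Krt6a (-3.70, adjusted p = 0.0576), Cthrc1 (-4.25, adjusted p = 0.0727), Kif26b (-2.66, adjusted p = 0.0727) or Edn1 (-3.92, adjusted p = 0.255). With 16 added to the linear signal it was called for Krt6a (-3.51, adjusted p = 0.0221) and Kif26b (-2.46, adjusted p = 0.0357). Of 24 alternatives it was called in 9 for Krt6a, as many as for Prr9, in 6 for Kif26b and in 3 for Edn1, and for Cthrc1 in 4 of 23.

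**Figure D5:**
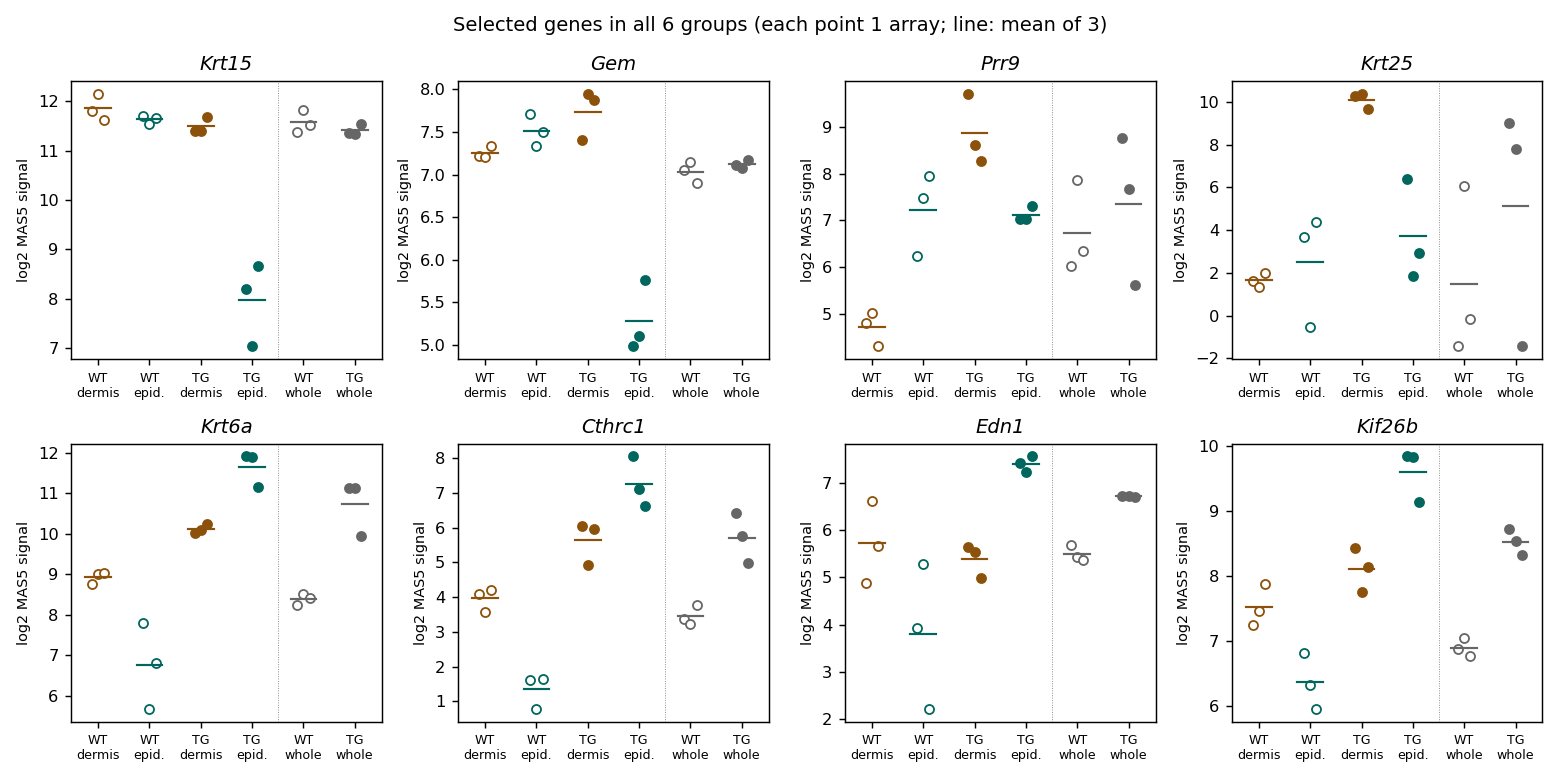
Log2 MAS5 signal of 8 genes in all 6 groups (WT wild type, TG transgenic; open symbols wild type, filled symbols transgenic; 1 point for each array and a line at the mean of 3, with a separate axis for each gene). Krt15 and Gem are low in transgenic epidermis alone among the separated layers, Prr9 and Krt25 are high in transgenic dermis, and Krt6a, Cthrc1, Edn1 and Kif26b have their highest means in transgenic epidermis.

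Whole skin of the transgenic mice offered a set of arrays that the layer test did not use. The mean of its 3 arrays lay between the means of the layers for 1501 of the 1802 genes higher in dermis (83.3%) and for 1147 of the 1252 higher in epidermis (91.6%). Called genes have layer means set apart, which favours such a place, and the share over all genes was not computed. Of genes higher in dermis, 274 were above both layers and 27 below both. Of those higher in epidermis, 41 were above and 64 below. Akr1cl and Klk1b27 were above both, at 9.70 and 9.39 against 8.69 and 8.16 in dermis. For Fmod the whole skin arrays were at 8.07, 7.45 and 8.22 and for Il1f9 at 8.60, 8.97 and 8.25, nearer in each case to the layer with more signal. On a log2 scale most mixtures of layers this far apart lie near the brighter layer, so that nearness is no result about these genes. Krt15 was at 11.36, 11.33 and 11.53 in transgenic whole skin, close to its dermis values and above every transgenic epidermis array. These positions were not tested.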

How the data were processed

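Per the submitters' processing notes, signals were made with MAS5; not given in the sources used here are its settings. The authors' deposited values form 1 table of log2 values for 45037 probe sets and 18 arrays, used as deposited. Array annotation gave 34945 probe sets 1 gene symbol, 932 several and 9160 none. The brightest probe set stood for a gene, and genes at or below the 30th percentile of probe set means (log2 3.15) were left out, so 13739 of 18193 genes were tested. Limma 3.58.1 in R 4.3.3 fitted 4 group means to the 12 arrays of separated layers (8 residual degrees of freedom, trended prior, Benjamini-Hochberg adjustment over all genes, threshold 0.05) and was tested on simulated data. The number of arrays limits the precision.

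Named genes were the 12 largest called differences in each direction with no overlap of arrays and a mean log2 signal of at least 7 in the higher layer, a set of markers, up to 4 members of each list with the smallest adjusted p, up to 8 genes in each direction of the genotype difference, and the 8 brightest genes with an interval within 1 of 0. Further genes in the text were picked once their values had been seen. The genes and the 40 lists were chosen with earlier results of these data known. Of list members, 74 fell below the filter, 53 had no probe set of 1 named gene and 8 were listed under another symbol. Promoter sequences came from RefSeq (GRCm38.p6). Alternatives covered the arrays in the fit, array weights, a replicate block, normalization, an added 16, probe sets, filters, a minimum difference, the prior and leaving out each array.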

Additional observations from a re-analysis of the deposited data

Results flagged for a closer look

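Each of these genes stood out because the difference between dermis and epidermis in transgenic skin departed from that in wild-type skin by a test of the difference itself (adjusted p = 0.0424 for each in limma). Krt15 had a genotype difference of 3.29 log2 units, Gem one of 2.72 and Prr9 one of 4.26. Across 24 alternatives the Krt15 value ranged from 2.83 to 3.65 and was called in 11, the Gem value ranged from 2.30 to 2.96 and was called in 10, and the Prr9 value ranged from 3.63 to 4.76 and was called in 9.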

How the results depend on the processing

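The transgenic layer count of 3054 became 6423 with array weights, whose estimate stopped before it converged, 5303 with every probe set (25931 features, 49.8% of calls higher in dermis), and 616 when tested against a log2 difference of 1. It ranged from 2177 to 3697 without 1 array. The genotype count of 3 became 42 with all 18 arrays, 1726 with array weights, 5 with a common 75th percentile, 9 with 16 added and 7 with probe sets averaged, and ranged from 0 to 54 without 1 array (54 without transgenic dermis replicate 1, 15 without wild-type epidermis replicate 2). It was 0 in limma with quantile normalization, every probe set, a tested minimum difference and no trend, with 1116, 1950, 153 and 1028 genes at an unadjusted p under 0.05. The wild-type count of 2559 became 4035 with all 18 arrays, 4784 with array weights, 4359 with every probe set and 344 with the minimum difference, and ranged from 1341 to 3146 without 1 array. With probe sets averaged, 53.2% of wild-type calls were higher in dermis against 67.4%. Same-numbered transgenic samples deviated together at r = 0.404, 0.176 and -0.0419, so the numbers were not taken to pair samples. With the replicate block the counts were 3235 (transgenic), 1 (genotype, none of the 3) and 2830 (wild type). With probe sets averaged, Cd86 and Irf4 turned to -0.08 and -0.23. Of 207 named genes called, 118 kept their call in every alternative that could be run for them. The cause of these changes was not tested.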
